A study of Mus musculus with 6 samples.

Results

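Radial glia genes, 35 in all, were followed in forebrain RNA of Dyrk1a+/- and wt mouse embryos. They were chosen by name, as markers or regulators of these cells, with earlier results of these data known. Each symbol matched a single Ensembl identifier among the 33084 in the deposited count table. All 35 passed the filter on low counts, out of 19403 genes tested and 30785 with at least 1 count. The Dyrk1a+/- group was 3 forebrain samples at embryonic day 15.5 (E15.5) heterozygous for an inactivated Dyrk1a gene, and the wt group was 3 forebrain samples of the same age. The labels number the samples of each genotype as biological replicates, but do not say which part of Dyrk1a was removed, whether embryos were pooled or how litters were shared, so p-values measure the spread between these samples.

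Radial glia are the neural stem cells of the embryonic forebrain. Their cell bodies line the ventricle and a long process reaches the outer surface of the brain, along which newborn neurons migrate. They divide to renew themselves and to give neurons, either directly or through intermediate progenitors, and late in gestation they turn to making astrocytes and other glia. Transcription factors of the PAX, SOX and EMX families hold their identity, Notch and cytokine receptors bear on when they stop making neurons, and polarity proteins set how fate determinants are shared at division. Dyrk1a encodes a dual-specificity kinase that is known to act on cell cycle exit and brain growth.

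Library totals ran from 18699434 to 25012356 counts in Dyrk1a+/- and from 25270710 to 32865708 in wt. Levels are given as CPM, counts relative to the library total after TMM adjustment of library sizes. A pair of libraries, Dyrk1a+/- replicate 2 and wt replicate 3, stood apart from the other 4 on the first principal component (34.9% of variance) and were richest in the structural RNAs 7SK, RNase P and RNase MRP, at 4% and 4.46% of counts against 2.57% to 3.01%. Since the pair holds 1 library of each genotype, log2 differences inside it and among the other 4 are given for members at an unadjusted p under 0.05 and for some others. Dyrk1a was at 149, 147 and 158 CPM in Dyrk1a+/- and at 176, 186 and 160 CPM in wt, a log2 fold change of -0.20 (SE 0.079; edgeR, Benjamini-Hochberg adjusted p = 0.59). All Dyrk1a+/- libraries were below all wt libraries for it, by little in the case of wt replicate 3.

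The defining markers of radial glia were present in every library of either genotype. Fabp7, the brain lipid-binding protein, had the highest level per length, at 217 ± 29.2 CPM per kb of exon in Dyrk1a+/- and 228 ± 21.7 in wt (SD, n = 3 per genotype). The intermediate filament Vim was at 55.3 ± 4.13 and 48.4 ± 5.45 CPM per kb, Nes at 39.8 ± 4.63 and 35.8 ± 4.14, and Sox2 at 39.2 ± 6.48 and 32.9 ± 3.4, in Dyrk1a+/- and wt. Slc1a3, the glutamate transporter GLAST, was at 15.8 ± 1.7 and 18.1 ± 0.533 CPM per kb, and Pax6 at 6.16 ± 0.42 and 5.04 ± 0.116. Pax6 has many annotated exons (11694 bases in union), which lowers its value per kb. Fam107a (0.217 ± 0.0172 and 0.287 ± 0.0438 CPM per kb) and Insc (0.178 ± 0.066 and 0.218 ± 0.0145) were lowest, with 15 to 37 and 8 to 27 counts per library.

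**Figure D1:**
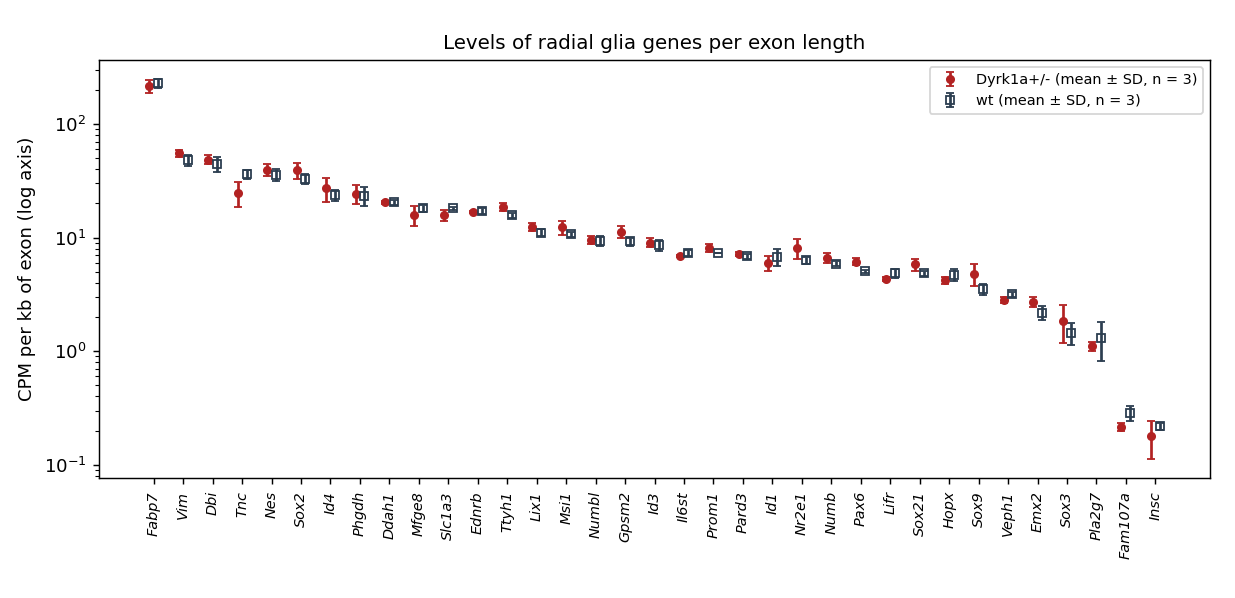
Level of each radial glia gene in CPM per kb of exon (log axis), as mean ± SD over 3 Dyrk1a+/- libraries (filled circles) and 3 wt libraries (open squares), ordered by the wt mean. Fabp7 stands highest, at 217 in Dyrk1a+/- and 228 in wt, and Insc lowest, at 0.178 and 0.218.

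With p-values adjusted over all genes by Benjamini-Hochberg (edgeR, threshold 0.05), no radial glia gene passed, and 2 of 19403 genes did (0.0103%). DESeq2 called 27 of the 15916 genes with an adjusted p (0.17%) and none of the 33 members that had one, the lowest being Tnc (adjusted p = 0.116). Log2 fold changes, Dyrk1a+/- minus wt, were positive in 21 members and negative in 14, with a median of 0.081. The members' median became 0.13 when Dyrk1a+/- replicate 1 was left out, 0.052 when Dyrk1a+/- replicate 3 was, 0.035 when wt replicate 1 was, and 0.15 when wt replicate 3 was. Over all genes tested 51.2% were positive, with a median of 0.0048. In bulk tissue, a difference in RNA per cell and in the number of cells of a type cannot be told apart. At an unadjusted p under 0.05 (edgeR) there were 6 higher members, 17.1%, against 3.27% of all genes, and 1 lower member, 2.86%, against 4.61% of all genes. The 3 Dyrk1a+/- libraries lay above all 3 wt libraries in 6 members (17.1%, against 6.53% of all genes) and below them in 4 (11.4%, against 7.49%). Because the members were chosen with earlier results of these data known, these shares are descriptions and not tests.

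The count of 7 members at an unadjusted p under 0.05 changed with the libraries used, as it did over all genes. It was 16 when the model held a term for the pair that stood apart and 15 in the other 4 alone, where 15.7% and 12.9% of all genes reached that level, against 7.88% with all 6 libraries. Without Dyrk1a+/- replicate 2 it was 12 (8.92% of all genes), without Dyrk1a+/- replicate 3 it was 2 (4.25%), and without wt replicate 1 it was 3 (4.11%). Dyrk1a+/- replicate 3 was the highest of the 6 libraries for 17 of the 35 members. It was the lowest for others, among them Tnc, Slc1a3, Fabp7 and Mfge8. The share of all genes for which it was highest was not counted. Dyrk1a+/- replicate 3 also had the highest mean level of G2 and M phase genes, given with the other gene lists.

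**Figure D2:**
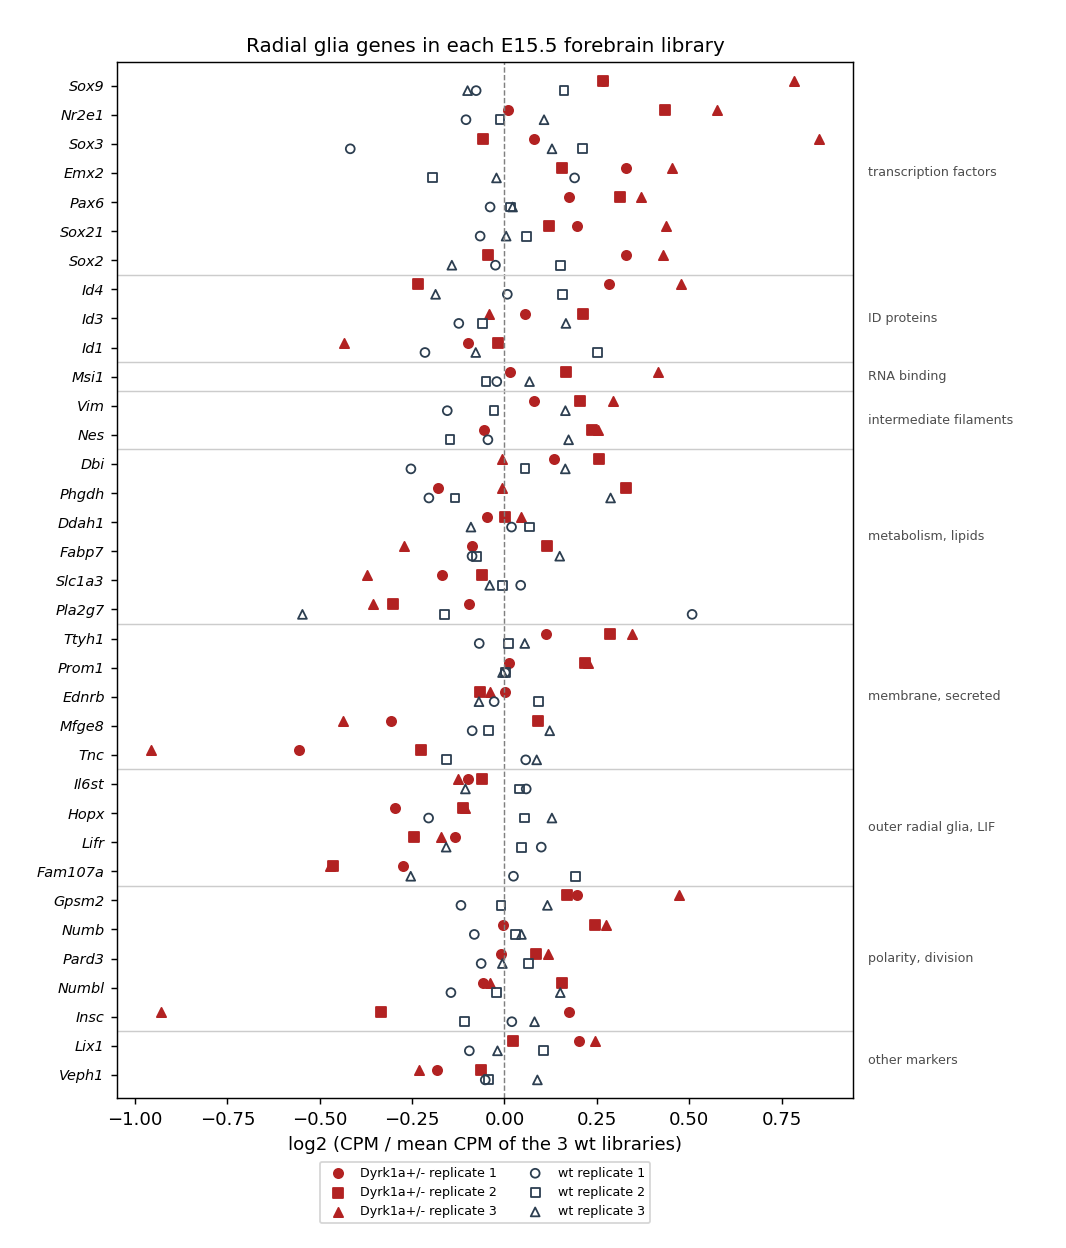
Level of each radial glia gene in each library, as log2 of its CPM over the mean of the 3 wt libraries, with Dyrk1a+/- libraries as filled red symbols and wt libraries as open symbols, grouped by role. The 7 transcription factors lie mostly to the right of the wt mean in Dyrk1a+/-, whereas Tnc and the 4 genes of outer radial glia and LIF signalling lie to the left.

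The 7 transcription factors all had higher means in Dyrk1a+/-, with a median log2 fold change of 0.31, though none passed over all genes. The same sign held for all 7 under every scaling, test and omission of a library that was run, though within the pair of libraries alone Sox3 was -0.16. Summed over the 7, levels were 218 to 267 CPM in Dyrk1a+/- and 187 to 203 CPM in wt. The roles of members were assigned here with earlier results of these data known. Hopx, a homeodomain-only cofactor with a log2 fold change of -0.17, was set with the outer radial glia markers.

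Pax6, the paired-box factor of dorsal forebrain progenitors, was at 66.5, 73.3 and 76.1 CPM in Dyrk1a+/-, against 57.4, 59.6 and 59.9 CPM in wt. All 3 Dyrk1a+/- libraries were above every wt library, and the wt values had a coefficient of variation of 2.3%. Its fold change was 1.22 (95% interval 1.08 to 1.37), with a log2 fold change of 0.29 (SE 0.075; edgeR, unadjusted p = 0.00416, Benjamini-Hochberg adjusted p = 0.483). Inside the pair that stood apart it differed by 0.29 (log2), among the other 4 libraries by 0.28, and the log2 fold change ran from 0.25 to 0.34 with a library left out. The gene (ENSMUSG00000027168) lies on GRCm38 chromosome 2, 105668900 to 105697364. RefSeq (GRCm38.p6) gives 2 start windows for Pax6. The 250 bases before the upstream start, shown since Pax6 had the lowest p of the members, hold a CCAAT box and no E-box, whereas the other window holds an E-box and no CCAAT box. They run 5′ to 3′ on the gene's strand, and capitals mark matches of the CCAAT box, the GC box, the TATA box, the RBPJ motif and the E-box, whose letters are given with the promoter windows.
Pax6 (chr2:105668646-105668895, plus strand): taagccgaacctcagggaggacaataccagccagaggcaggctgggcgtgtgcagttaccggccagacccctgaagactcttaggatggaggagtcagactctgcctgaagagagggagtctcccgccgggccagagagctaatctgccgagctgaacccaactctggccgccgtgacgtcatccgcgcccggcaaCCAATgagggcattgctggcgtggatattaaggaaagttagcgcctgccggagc

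Sox9, a SOXE factor needed for neural stem cells and for the switch to gliogenesis, was at 17.5, 17.5 and 25 CPM in Dyrk1a+/-, against 13.8, 16.3 and 13.6 CPM in wt. Dyrk1a+/- replicate 3 was well above the rest, and the groups did not overlap. The log2 fold change was 0.46 (SE 0.158; edgeR, unadjusted p = 0.0178, adjusted p = 0.544), with 0.36 inside the pair, 0.47 among the other 4 libraries, and 0.27 without Dyrk1a+/- replicate 3. Nr2e1, the orphan nuclear receptor TLX of neural stem cells, was at 23.6, 31.7 and 35 CPM in Dyrk1a+/- and 21.8, 23.3 and 25.3 CPM in wt. Dyrk1a+/- replicate 1 lay inside the wt range. Its log2 fold change was 0.36 (SE 0.142; edgeR, unadjusted p = 0.0327, adjusted p = 0.592), with 0.32 inside the pair, 0.34 among the other 4 libraries, and 0.24 without Dyrk1a+/- replicate 3.

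Among the SOXB genes, Sox21, a SOXB2 factor known to counter SOXB1 activity, was at 21.1, 20.1 and 25 CPM in Dyrk1a+/- and 17.6, 19.2 and 18.5 CPM in wt, without overlap. The log2 fold change was 0.26 (SE 0.109; edgeR, unadjusted p = 0.0429, adjusted p = 0.619), and 0.16 without Dyrk1a+/- replicate 3. Inside the pair that stood apart it was 0.11, and among the other 4 libraries 0.31. The SOXB1 factors that keep progenitors undifferentiated overlapped between genotypes. Sox2 was at 85.1, 65.7 and 91.2 CPM in Dyrk1a+/- and 66.6, 75.2 and 61.4 CPM in wt (log2 fold change 0.25, SE 0.128), with Dyrk1a+/- replicate 2 below wt replicate 2. It was 0.38 without Dyrk1a+/- replicate 2 and 0.15 without Dyrk1a+/- replicate 3, and 0.097 inside the pair against 0.31 among the other 4. Sox3 was low, at 3.19, 2.9 and 5.44 CPM in Dyrk1a+/- and 2.26, 3.49 and 3.29 CPM in wt (0.35, SE 0.275), and its log2 fold change ran from 0.017 to 0.52 with a library left out.

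Emx2, a homeobox factor that patterns the caudal and medial cortex, was at 8.25, 7.32 and 9.01 CPM in Dyrk1a+/- and 7.5, 5.75 and 6.48 CPM in wt (log2 fold change 0.31, SE 0.147). Dyrk1a+/- replicate 2 lay below wt replicate 1. The antisense gene Emx2os shares 264 exon bases with Emx2 and had 784 counts over the 6 libraries, against 1094 for Emx2. Without a known strand setting, reads of these antisense partners cannot be told apart. Gm4675, antisense to Sox21, had 150 counts against 2986.

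The ID proteins, which hold back basic helix-loop-helix factors by pairing with them and are known targets of BMP signalling, gave no common direction. Id4 was at 111, 77.3 and 127 CPM in Dyrk1a+/- and 91.4, 101 and 79.9 CPM in wt, so that Dyrk1a+/- held both the lowest and the highest value. Its log2 fold change was 0.21 (SE 0.167), and it was 0.39 without Dyrk1a+/- replicate 2, 0.047 without Dyrk1a+/- replicate 3 and 0.12 without wt replicate 3. Inside the pair it was -0.048, and among the other 4 libraries 0.30. Id3 averaged 16.2 ± 1.46 CPM in Dyrk1a+/- and 15.4 ± 1.66 in wt, and Id1 6.97 ± 1.03 and 7.85 ± 1.34 (SD, n = 3 per genotype), with log2 fold changes of 0.081 (SE 0.12) and -0.17 (SE 0.169). Of 19 further genes of BMP and SMAD signalling 12 had positive and 7 negative log2 fold changes, none at an unadjusted p under 0.05 (edgeR). Their median was 0.034, and it was -0.022 without wt replicate 1 and -0.018 without Dyrk1a+/- replicate 3. Endothelial cells are also known to express Id1 and Id3, and the listed endothelial markers, 16 with 15 tested, summed to 390 to 435 CPM in Dyrk1a+/- and 392 to 451 CPM in wt. The part of endothelium in these values was not tested.

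Msi1, the RNA-binding protein Musashi-1 that represses translation of Numb, was at 62.7, 69.7 and 82.7 CPM in Dyrk1a+/- and 61.1, 59.9 and 65 CPM in wt. Only Dyrk1a+/- replicates 2 and 3 were above the wt range, and the log2 fold change was 0.21 (SE 0.103; edgeR, unadjusted p = 0.0746). Without Dyrk1a+/- replicate 3 it was 0.094.

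The intermediate filaments of radial fibres had higher means in Dyrk1a+/-, neither at an unadjusted p under 0.05 with all 6 libraries (edgeR). Vim was at 242, 264 and 281 CPM in Dyrk1a+/- and 206, 225 and 257 CPM in wt (log2 fold change 0.19, SE 0.099). Nes, nestin, was at 221, 271 and 274 CPM in Dyrk1a+/- and 223, 208 and 259 CPM in wt (0.15, SE 0.112). In each gene the genotypes overlapped, and wt replicate 3 was the highest wt library. Vim differed by 0.038 inside the pair and by 0.28 among the other 4 libraries, and by 0.12 without wt replicate 1. Nes was 0.081 without wt replicate 2, and 0.25 without either wt replicate 3 or Dyrk1a+/- replicate 1. Meningeal cells also express Vim, and the sum of their markers, given with Tnc, was lower in Dyrk1a+/-. Their part in the Vim values was not tested.

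Metabolic and lipid-binding genes of radial glia had small differences of either sign. Slc1a3 was at 137, 148 and 119 CPM in Dyrk1a+/-, against 159, 154 and 150 CPM in wt. The 3 Dyrk1a+/- libraries were all below wt, replicate 2 by little. This is a log2 fold change of -0.20 with a 95% interval of -0.40 to 0.0059 (SE 0.089; edgeR, unadjusted p = 0.0557, adjusted p = 0.647). It was -0.022 inside the pair that stood apart and -0.29 among the other 4 libraries, and -0.12 without Dyrk1a+/- replicate 3. The 250 bases before the RefSeq start of Slc1a3, shown to set beside Tnc as the lower member of next lowest p, hold 3 CCAAT boxes, a TATA box, a GC box and an E-box, in capitals.
Slc1a3 (chr15:8710808-8711057, minus strand): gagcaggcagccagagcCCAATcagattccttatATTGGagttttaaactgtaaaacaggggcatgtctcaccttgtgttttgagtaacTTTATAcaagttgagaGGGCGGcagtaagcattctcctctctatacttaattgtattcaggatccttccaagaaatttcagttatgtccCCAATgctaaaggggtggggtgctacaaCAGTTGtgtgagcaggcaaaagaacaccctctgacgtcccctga

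Fabp7, a Notch target in radial glia, was at 269, 309 and 237 CPM in Dyrk1a+/- and 269, 271 and 317 CPM in wt, a log2 fold change of -0.071 (SE 0.111) with overlapping groups.

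Ddah1, which breaks down inhibitors of nitric oxide synthase, averaged 81.7 ± 2.61 CPM in Dyrk1a+/- and 81.7 ± 4.52 in wt (SD, n = 3 per genotype), with a 95% interval of the fold change from 0.893 to 1.12. Dbi, the acyl-CoA-binding protein, averaged 69.3 ± 6.24 CPM in Dyrk1a+/- and 63.2 ± 9.17 in wt (log2 fold change 0.13, SE 0.116). Phgdh, the entry enzyme of serine synthesis, averaged 60.7 ± 11.1 CPM in Dyrk1a+/- and 58.1 ± 11.2 in wt (0.065, SE 0.159), and was highest in the pair of libraries that stood apart, at 73 CPM in Dyrk1a+/- replicate 2 and 70.9 CPM in wt replicate 3. Further along the serine pathway, Psat1 was at 131 ± 18.7 CPM in Dyrk1a+/- and 103 ± 15.6 in wt (log2 fold change 0.35, SE 0.135) and Shmt2 at 38.5 ± 2.22 and 33.4 ± 1.98 (0.21, SE 0.085). The serine transporter Slc1a4 was at 94 ± 8.79 and 110 ± 1.42 CPM (-0.22, SE 0.082). In that list of 9 genes 7 were positive and 2 negative. At an unadjusted p under 0.05 (edgeR) 2 were higher and 1 lower, against 3.27% and 4.61% of all genes. Pla2g7, the platelet-activating factor hydrolase, was low and scattered, at 3.57, 3.1 and 2.98 CPM in Dyrk1a+/- and 5.43, 3.41 and 2.61 CPM in wt (-0.25, SE 0.263).

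Of the membrane and secreted proteins, Tnc and Ttyh1 stood at an unadjusted p under 0.05 in opposite directions. Tnc, tenascin C, a matrix glycoprotein of the ventricular zone and a marker of outer radial glia in human cortex, was at 192, 241 and 145 CPM in Dyrk1a+/-, against 293, 253 and 300 CPM in wt. All Dyrk1a+/- libraries were below all wt libraries, with Dyrk1a+/- replicate 3 lowest and replicate 2 near wt replicate 2. The fold change was 0.684 (95% interval 0.529 to 0.884), a log2 fold change of -0.55 (SE 0.163; edgeR, unadjusted p = 0.00861, Benjamini-Hochberg adjusted p = 0.503). Inside the pair that stood apart it was -0.31, among the other 4 libraries -0.71, and it ran from -0.74 to -0.38 with a library left out. The gene (ENSMUSG00000028364) lies on GRCm38 chromosome 4, 63959785 to 64047015. Of its 2 overlapping RefSeq windows, the upstream one is shown, since Tnc was the lower member of lowest p. Its 250 bases hold 3 E-boxes, a TATA box, a GC box and an RBPJ match, in capitals. The other window holds 2 E-boxes, a TATA box, a GC box and an RBPJ match, the last at a different place.
Tnc (chr4:64047016-64047265, minus strand): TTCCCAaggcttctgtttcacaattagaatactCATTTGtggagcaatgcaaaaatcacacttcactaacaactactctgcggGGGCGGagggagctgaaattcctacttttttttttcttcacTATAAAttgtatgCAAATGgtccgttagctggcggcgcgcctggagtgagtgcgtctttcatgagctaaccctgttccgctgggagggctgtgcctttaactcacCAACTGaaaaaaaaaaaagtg

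Oligodendrocyte precursors and meningeal cells are also known to express Tnc, and most of their markers had lower means in Dyrk1a+/-. The 12 markers of oligodendrocyte precursors summed to 783 to 915 CPM in Dyrk1a+/- and 904 to 1008 CPM in wt, with 10 of 12 negative. Among them Pdgfra, the growth factor receptor that marks these cells, was at 48.8 and 63.4 CPM in Dyrk1a+/- and wt, while Sox10 was near 0, at 0.435 and 0.901 CPM. Most of that sum was Ptprz1, at 576 CPM in Dyrk1a+/- and 635 CPM in wt, which stands among the other ventricular zone genes too. The 16 meningeal markers summed to 761 to 812 CPM in Dyrk1a+/- and 865 to 991 CPM in wt, with 13 of 16 negative. The part of these cells in the Tnc values was not tested.

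Ttyh1, tweety homolog 1, a membrane protein of neural stem cells, was at 108, 122 and 127 CPM in Dyrk1a+/-, against 95.6, 101 and 104 CPM in wt. The groups did not overlap, and the log2 fold change was 0.25 (SE 0.082; edgeR, unadjusted p = 0.0134, adjusted p = 0.526), with 0.23 within the pair and 0.26 within the other 4. The antisense gene 9430041J12Rik shares 180 exon bases with Ttyh1 and had 571 counts against 16270. Prom1, prominin-1 of the apical membrane, was at 53, 61.2 and 61.5 CPM in Dyrk1a+/- and 52.6, 52.7 and 52.4 CPM in wt. The wt libraries were nearly equal (coefficient of variation 0.293%) and Dyrk1a+/- replicate 1 was just above them, for a log2 fold change of 0.16 (SE 0.08; edgeR, unadjusted p = 0.0835). The antisense gene Gm16401 shares 424 exon bases with Prom1 and had 413 counts against 8293. Mfge8, a secreted integrin ligand, averaged 74.2 ± 14.7 CPM in Dyrk1a+/- and 85.3 ± 6.66 in wt (-0.20, SE 0.132), with -0.37 without Dyrk1a+/- replicate 2 and -0.094 without Dyrk1a+/- replicate 3. Ednrb, the endothelin B receptor, averaged 71.9 ± 1.71 CPM in Dyrk1a+/- and 73.6 ± 4.3 in wt (-0.034, SE 0.072; SD, n = 3 per genotype). Of the 5 tested ligand, receptor and converting-enzyme genes of endothelin signalling, 3 were positive and 2 negative, none at an unadjusted p under 0.05 (edgeR).

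Markers of outer radial glia and the receptors for leukaemia inhibitory factor (LIF) all had lower means in Dyrk1a+/-, with a median log2 fold change of -0.17 and none at an unadjusted p under 0.05 (edgeR). The negative sign of these 4 genes held under every scaling, test and omission of a library that was run. LIF signals through Lifr and the shared subunit gp130, encoded by Il6st, to STAT3, a route known to maintain radial glia and favour astrocyte fate. Lifr was at 48.1, 44.5 and 46.8 CPM in Dyrk1a+/- and 56.5, 54.4 and 47.2 CPM in wt (-0.18, SE 0.087; unadjusted p = 0.0669), the lowest wt library being just inside the Dyrk1a+/- range. Il6st was at 76.6, 78.6 and 75.1 CPM in Dyrk1a+/- and 85.3, 84.3 and 76.1 CPM in wt (-0.093, SE 0.073), and was 0.046 higher on the log2 scale in Dyrk1a+/- within the pair of libraries.

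Hopx and Fam107a, outer radial glia markers in human cortex, were lowly expressed here. Hopx, a homeodomain-only cofactor, averaged 6.38 ± 0.467 CPM in Dyrk1a+/- and 7.17 ± 0.845 in wt (SD, n = 3 per genotype), with overlap (log2 fold change -0.17, SE 0.14). Fam107a, an actin-binding stress-response protein, was at 0.917, 0.804 and 0.799 CPM in Dyrk1a+/- and 1.13, 1.27 and 0.93 CPM in wt, a log2 fold change of -0.40 (SE 0.252). Its groups did not overlap, but the counts behind each library were 15 to 37. In a list of 11 other outer radial glia markers, taken from human work, 2 were positive and 9 negative, with a median of -0.18. At an unadjusted p under 0.05 (edgeR) 3 of them were lower, against 4.61% of all genes. These 3 were Itgb5, an integrin subunit (20.2 ± 1.41 CPM in Dyrk1a+/- and 25 ± 2.05 in wt), Lgals3bp (1.65 ± 0.225 and 2.29 ± 0.179) and Moxd1 (1.43 ± 0.4 and 2.12 ± 0.312). Of 13 tested partners of gp130 and STAT3, 5 were positive and 8 negative, with a median of -0.0029, which was 0.00068 with RLE scaling factors. Their mean difference in log2 CPM (offset 0.5), another measure, was 0.018. Only Socs3, the feedback inhibitor that STAT3 induces, had an unadjusted p under 0.05 (edgeR), 7.69% of the list against 3.27% of all genes higher. It was at 11.8 ± 1.05 CPM in Dyrk1a+/- and 8.81 ± 1.68 in wt (0.42, SE 0.155, adjusted p = 0.574).

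Of the polarity and division genes, Gpsm2 was at an unadjusted p under 0.05. Gpsm2, also called LGN, which ties the spindle to the cell cortex and keeps radial glia divisions planar, was at 41.5, 40.7 and 50.2 CPM in Dyrk1a+/-, against 33.3, 35.9 and 39.2 CPM in wt. Groups did not overlap, but the lower Dyrk1a+/- libraries were just above wt replicate 3. The log2 fold change was 0.28 (SE 0.106; edgeR, unadjusted p = 0.0248, adjusted p = 0.577), with 0.051 within the pair and 0.39 within the other 4, and 0.18 without Dyrk1a+/- replicate 3. Clcc1 on the opposite strand shares 203 exon bases with Gpsm2 and had 4771 counts against 5908. Pard3, the apical scaffold of the PAR complex, averaged 104 ± 4.74 CPM in Dyrk1a+/- and 99.2 ± 4.43 in wt, with a 95% interval of the fold change from 0.934 to 1.17.

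Numb and Numbl, endocytic adaptors that restrain Notch, averaged 26.2 ± 2.68 CPM and 83.1 ± 6.97 CPM in Dyrk1a+/- and 23.2 ± 1.1 CPM and 81.7 ± 8.48 CPM in wt (log2 fold changes 0.18, SE 0.102, and 0.024, SE 0.097; SD, n = 3 per genotype). Insc, inscuteable, which links PAR3 to LGN, had 19, 16 and 8 counts in Dyrk1a+/- and 27, 19 and 24 counts in wt, too few to show a difference at this depth (-0.29, SE 0.323, 95% interval -1.02 to 0.45). In 21 further polarity and spindle genes 15 were positive and 6 negative, with a median of 0.053. At an unadjusted p under 0.05 (edgeR) 2 were higher, against 3.27% of all genes. Numa1, the dynein adaptor that binds LGN, was at 352 ± 12.5 CPM in Dyrk1a+/- and 310 ± 9.01 in wt (0.18, SE 0.068; edgeR, unadjusted p = 0.0262), and Crb2, an apical membrane protein, at 33.4 ± 2.04 and 28 ± 2.97 (0.25, SE 0.1; unadjusted p = 0.0341).

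The remaining markers went opposite ways. Lix1 averaged 42.5 ± 3.4 CPM in Dyrk1a+/- and 38 ± 2.7 in wt (log2 fold change 0.16, SE 0.092). Veph1, a membrane-associated pleckstrin-homology protein, was at 19.7, 21.4 and 19.1 CPM in Dyrk1a+/- and 21.6, 21.8 and 23.8 CPM in wt, without overlap (-0.16, SE 0.095; edgeR, unadjusted p = 0.134). With 3 libraries a genotype, a 2-sided exact permutation test cannot go below 0.1, the p of each of the 10 members without overlap.

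**Figure D3:**
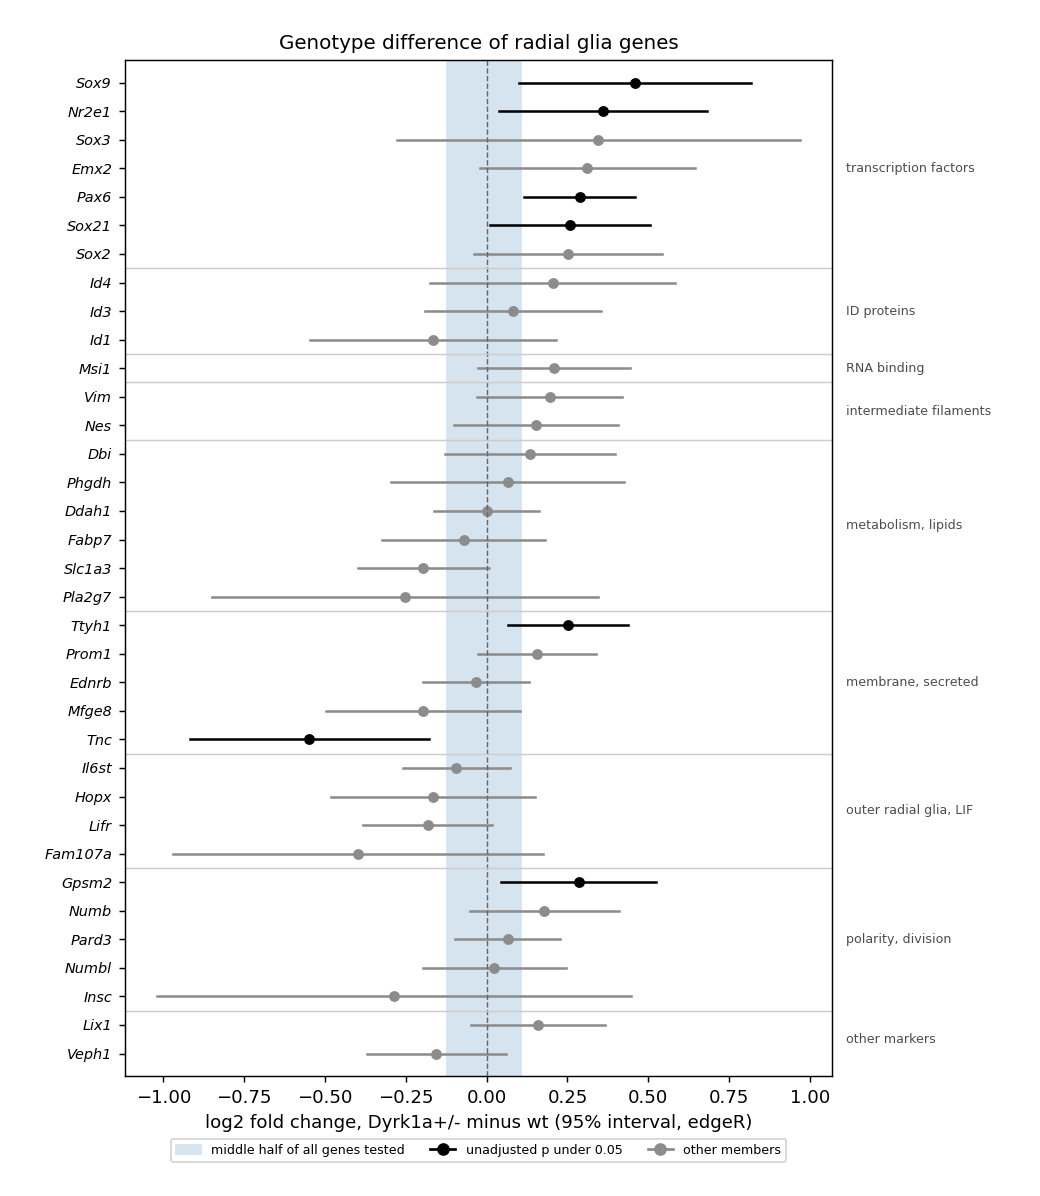
Log2 fold change of each radial glia gene, Dyrk1a+/- minus wt, with its 95% interval from edgeR, in black where the unadjusted p was under 0.05 and in grey otherwise; the blue band spans the quartiles of all genes tested, -0.12 to 0.11. Sox9 has the highest value, 0.46, and Tnc the lowest, -0.55.

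Lists of genes expressed beside or after these members were laid alongside, all counted from the same fit. Over all genes tested 51.2% had positive log2 fold changes. At an unadjusted p under 0.05 (edgeR) 3.27% of all genes were higher and 4.61% lower. Of 30 other ventricular zone genes 22 were positive and 8 negative, with a median of 0.18, and 10 positive ones were at an unadjusted p under 0.05 (edgeR). They included Nde1, a spindle and nuclear migration protein (44.6 ± 6.3 CPM in Dyrk1a+/- and 32.2 ± 2.28 in wt), Hes1, the Notch effector (12.5 ± 1.05 and 9.02 ± 0.636), and the repressor Rest (46.7 ± 3.87 and 38.2 ± 0.947). The list's median was 0.063 without Dyrk1a+/- replicate 3 and 0.26 in the 4 libraries outside the pair. Intermediate progenitor genes were positive in 15 of 18 cases, with a median of 0.26, among them Btg2, an antiproliferative gene of neurogenic progenitors (63.3 ± 7.71 CPM in Dyrk1a+/- and 49.4 ± 2.79 in wt), and 9 were at an unadjusted p under 0.05. All 24 G2 and M phase genes and all 24 S phase genes were positive, with medians of 0.36 and 0.28. Of these, 23 and 20 were at an unadjusted p under 0.05 (edgeR), against 3.27% of all genes higher. The spindle factor Tpx2 was at 75.4 ± 5.29 CPM in Dyrk1a+/- and 55.2 ± 3.02 in wt, and the nucleotide reductase subunit Rrm2 at 45.3 ± 6.15 and 34.3 ± 0.984. No gene of these 4 lists passed edgeR over all genes, and DESeq2 called 4 of the G2 and M phase list.

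Early astrocyte genes mostly had lower means in Dyrk1a+/-. Of 13 tested 12 were negative and 1 positive, with a median of -0.31, and none was called by edgeR or DESeq2. At an unadjusted p under 0.05 (edgeR) 6 were lower and 1 higher, against 4.61% and 3.27% of all genes. Aqp4, the astrocyte water channel, was at 0.919 ± 0.123 CPM in Dyrk1a+/- and 1.91 ± 0.114 in wt. Clu, clusterin, was at 21.6 ± 3.27 CPM in Dyrk1a+/- and 29.2 ± 3.02 in wt. The 1 positive gene was Fgfr3 (120 CPM in Dyrk1a+/- and 98.3 in wt), which ventricular zone cells also express and which stands in the ventricular zone list too. Neuronal genes were negative in 17 of 22 cases, with a median of -0.16, among them the neurofilament gene Nefl (73.1 ± 7.74 CPM in Dyrk1a+/- and 88.9 ± 2.01 in wt). Some genes stand in more than 1 list, so the counts of lists are not separate.

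Mean log2 CPM per library, relative to the mean of all 6 libraries, shows which libraries carry these values. For the 7 transcription factors it was 0.045, 0.021 and 0.39 in Dyrk1a+/- replicates 1, 2 and 3, and -0.21, -0.093 and -0.15 in wt. The G2 and M phase list stood at 0.035, 0.16 and 0.34 in Dyrk1a+/- and -0.28, -0.15 and -0.10 in wt, with Dyrk1a+/- replicate 3 highest in each. For the 4 outer radial glia and LIF receptor genes it was -0.082, -0.088 and -0.086 in Dyrk1a+/- and 0.085, 0.16 and 0.012 in wt, so the Dyrk1a+/- libraries were alike and the wt libraries spread. Over all 35 members it was -0.019, 0.041 and 0.054 in Dyrk1a+/- and -0.068, -0.0054 and -0.0025 in wt, overlapping by replicate 1. Whether the share of dividing cells moves the transcription factor values was not tested. Transcription factors differed by 0.17 inside the pair that stood apart and by 0.37 among the other 4 libraries, and the outer radial glia and LIF receptor genes by -0.10 and -0.21.

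**Figure D4:**
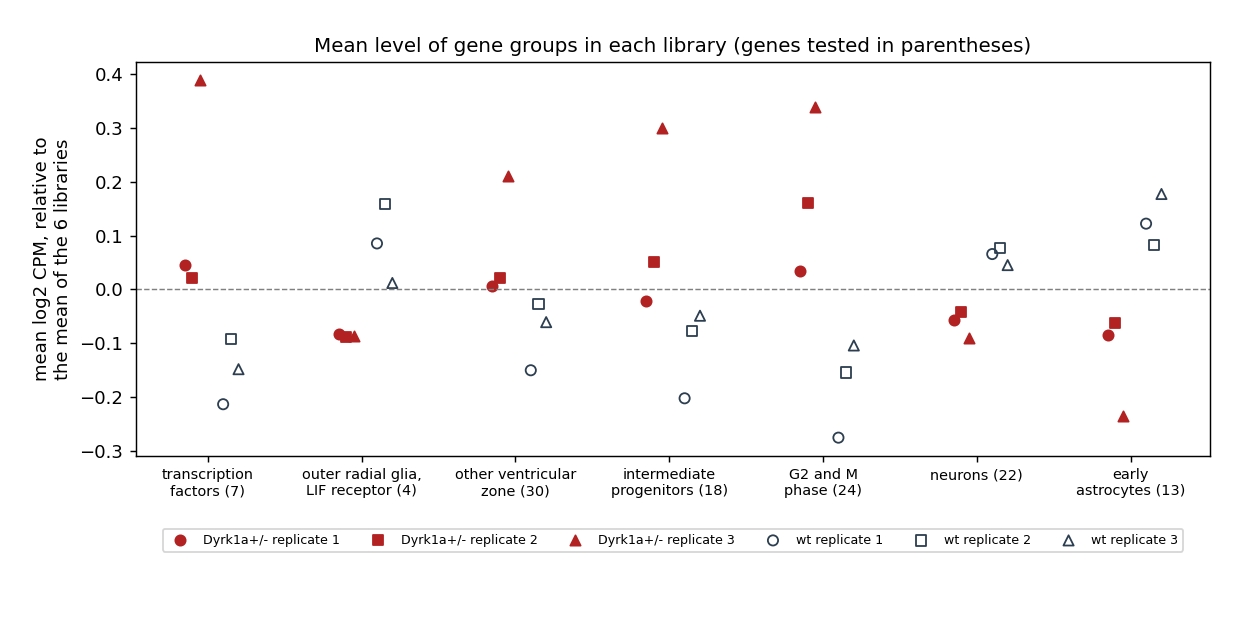
Mean log2 CPM of each gene group in each library, relative to the mean of the 6 libraries, with Dyrk1a+/- libraries as filled red symbols left of the open wt symbols. Dyrk1a+/- replicate 3 (triangle) is highest for transcription factors, at 0.39, and for G2 and M phase genes, at 0.34, and lowest for early astrocyte genes, at -0.24.

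**Figure D5:**
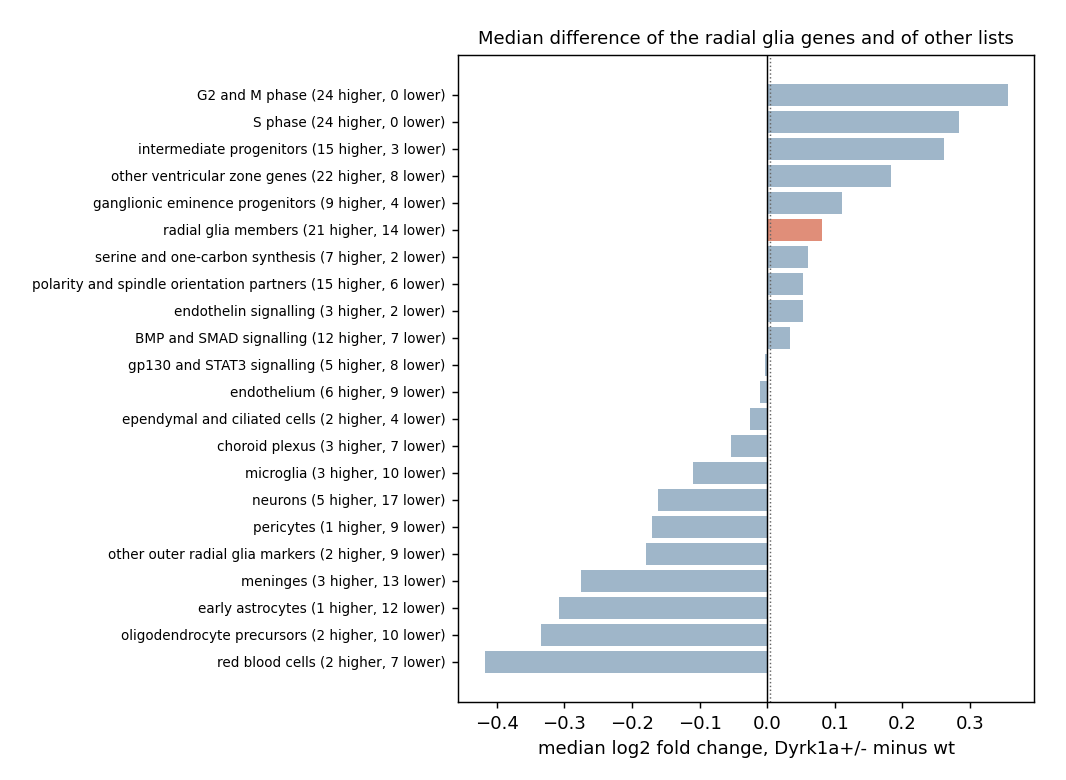
Median log2 fold change, Dyrk1a+/- minus wt, of the 35 radial glia genes (red bar) and of each other list (blue bars), with the counts of positive and negative genes; the dotted line is the median of all genes tested, 0.0048. The radial glia genes, at 0.081, lie between the ventricular zone list, at 0.18, and the outer radial glia list, at -0.18. Red blood cell genes have a median of -0.42 but a mean difference of 0.015. Hbb-y, an embryonic globin, was at 42.2 CPM in Dyrk1a+/- and 6.85 in wt, but no red blood cell gene was called by edgeR or DESeq2.

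RefSeq promoter windows on GRCm38.p6, read from 250 bases before each start, were read for 31 of the 35 members, all but Sox3, Sox9, Id1 and Msi1, with 42 windows in all. Their median GC content was 58.2%, against 52.4% over all 32851 windows, and the median ratio of observed to expected CpG 0.625 against 0.373. On either strand, the CCAAT box (CCAAT) was in 50% of member windows and 33.8% of all windows, the GC box (GGGCGG) in 45.2% and 32.7%, and the TATA box (TATAAA) in 16.7% and 12.4%. The RBPJ motif of Notch signalling (TGGGAA) was in 26.2% and 21.6%, the E-box (CANNTG) in 59.5% and 66.2%, the N-box of HES factors (CACNAG) in 33.3% and 36.7%, and a SOX motif (ACAATG) in 7.14% and 10.7%. An E2F motif (TTTGGCGC) was in 1 member window, of Hopx, 2.38% against 0.417%. Matches of different motifs that share bases were each counted, and windows of 1 gene can overlap. A match is of letters only, and no binding was measured.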

How the data were processed

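RNA of 3 Dyrk1a+/- and 3 wt forebrain samples was measured by single-end RNA sequencing. The labels name polyA RNA, while the protocol names a stranded total RNA kit with ribosomal depletion. The authors deposited whole-number counts of reads per Ensembl gene; bcl2fastq 2.17.1.14, HISAT2, SAMtools 1.9, HTSeq 0.9.1 and GRCm38 are named in the submitters' processing notes. The sources used here name neither an annotation release nor a strand setting. Symbols came from GENCODE M21 and matched 32888 of 33084 identifiers. No library was a copy of another (chi-square per degree of freedom 4.55 to 29.7 over all pairs of libraries).

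From these counts, edgeR 4.0.16 in R 4.3.3 was run with its expression filter (minimum count 10, minimum total 15), TMM factors and genotype as the only term. Its quasi-likelihood test was adjusted by Benjamini-Hochberg over 19403 genes at 0.05. CPM uses TMM library sizes, per kb of union exon where levels of genes are compared, with an offset of 0.5 for list means on the log2 scale. The fit was also run on simulated data with larger fold changes than any member had, and no result here rests on it. DESeq2 1.42.0, other scalings, no filter, a replicate block, a term for the pair of libraries that stood apart, the 4 others alone and leaving out each library were the alternatives. Promoter windows were read with Python 3.11.15.

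Values per library are given for members at an unadjusted p under 0.05 or without overlap, and up to 3 genes of lowest p are named per list. Fgfr3 was named after its values were seen. Some genes that this rule names are not reported here. The members and lists were chosen with earlier results of these data known.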

Additional observations from a re-analysis of the deposited data

How the results depend on the processing

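No radial glia gene was called under any of the 14 alternatives, where the lowest adjusted p of a member was 0.0996 to 0.999. Over all genes 2 were called, against 27 with DESeq2, 4 without the count filter, 6 with the pair that stood apart as a model term, 6 in the 4 others alone, and 0 to 5 with each library left out. With the replicate block 0 genes were called. Whether the replicate numbers pair the samples is not known. Deviations of same-numbered libraries correlated at 0.2, -0.32 and -0.16, and not every library correlated best with its own number. The strongest correlation, 0.45, was inside the pair that stood apart, so these values cannot decide it. Members at an unadjusted p under 0.05 numbered 7, against 16 with the term for the pair, 15 in the 4 others and 2 to 12 with each library left out. The members' median was 0.035 to 0.15 with each library left out. Of 490 member values 17 changed sign, in 6 members whose log2 fold change was near 0 or scattered. Ddah1 was 0.0031 with RLE factors, 0.0049 with library sizes without mitochondrial, globin and structural RNA, 0.0052 with DESeq2, 0.00051 with the replicate block, 0.0014 with the pair term, and -0.044 to 0.031 with each library left out. With each library left out, Pla2g7 ran from -0.47 to 0.098, Numbl from -0.048 to 0.11, Phgdh from -0.091 to 0.23, Ednrb from -0.067 to 0.011 and Fabp7 from -0.18 to 0.018. The causes were not tested. Depth limits Insc and Fam107a, at 8 to 37 counts a library.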

Other observations

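Ptgds, the prostaglandin D synthase that meningeal cells express strongly, was 1 of the 2 genes called over all genes. It was at 14.7, 13.1 and 16.2 CPM in Dyrk1a+/-, against 35.3, 31.1 and 31.3 CPM in wt, a log2 fold change of -1.15 (SE 0.109; edgeR, Benjamini-Hochberg adjusted p = 0.0238). Of 16 meningeal genes 13 were negative, with a median of -0.28, among them Postn, a matrix protein (11.5 ± 0.467 CPM in Dyrk1a+/- and 16.7 ± 1.75 in wt; SD, n = 3 per genotype), and the collagen Col6a3 (52.9 ± 7.78 and 74.5 ± 7.09). Pericyte genes were negative in 9 of 10 cases, with a median of -0.17 and none at an unadjusted p under 0.05 (edgeR). That median was -0.10 without Dyrk1a+/- replicate 3 and -0.090 without wt replicate 3. Oligodendrocyte precursor genes had a median of -0.33, and the matrix protein Tnr was at 75.7 ± 11 CPM in Dyrk1a+/- and 99.6 ± 5.54 in wt.

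Microglial genes were negative in 10 of 13 cases, with a median of -0.11. At an unadjusted p under 0.05 (edgeR) 2 were lower, against 4.61% of all genes. These were the complement genes C1qc (5.89 ± 0.28 CPM in Dyrk1a+/- and 7.83 ± 0.675 in wt) and C1qb (4.76 ± 0.124 and 6.34 ± 0.505). The median was -0.033 without wt replicate 3, -0.041 without Dyrk1a+/- replicate 1 and -0.26 without Dyrk1a+/- replicate 2. Choroid plexus genes were negative in 7 of 10 cases, with a median of -0.053 that ran from -0.20 without Dyrk1a+/- replicate 2 to 0.051 without Dyrk1a+/- replicate 3. Ependymal genes were negative in 4 of 6 cases (median -0.026, and 0.032 without wt replicate 2), and endothelial genes in 9 of 15 (median -0.010, and 0.037 without wt replicate 3). Ganglionic eminence genes were positive in 9 of 13 cases, with a median of 0.11, which was -0.012 without Dyrk1a+/- replicate 3 and 0.027 without wt replicate 1.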
